A study of Homo sapiens with 4 samples.

Results

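The genes described here are 47 genes of mitosis: the kinases and cyclins that start it, the spindle checkpoint, the centromere and kinetochore, the spindle and its motors, condensin and the machinery of cytokinesis. They were chosen by symbol and read through the Ensembl identifiers of the deposited table, where all 47 were found among 60617 gene entries. All 47 passed the filter on low counts, with 17374 genes tested in all. RNA-seq libraries came from SKNMC, an Ewing sarcoma cell line, grown in MEM with serum and kept for 24 h either in the DMSO vehicle (n = 2) or in 1 µM CBL0137 (n = 2). CBL0137 is a curaxin, a DNA-binding small molecule that acts on FACT, a histone chaperone; the series asks what inhibiting FACT does in this tumour. The cells of both groups are the same line, with no other treatment or allele given in the labels. No label states that replicates were separate cultures, so every p-value below measures only the spread between these libraries, which may be technical.

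In a dividing cell, cyclin B with CDK1 drives entry into mitosis, kinetochores built on centromeric chromatin attach chromosomes to the spindle, and the spindle checkpoint holds back the anaphase-promoting complex until all are attached. Most genes of this programme are transcribed in G2 and M phase under B-MYB, FOXM1 and the MuvB complex, and their summed level in a culture follows how many cells are cycling. In bulk RNA, fewer cells in G2 or M and less RNA per such cell cannot be told apart.

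Assigned reads numbered 19625517 to 21061892 per library. Levels from counts are given in CPM, the usual library-scaled counts after trimmed-mean (TMM) normalisation, and are shares of the RNA sequenced. All 10 Ewing sarcoma markers set for this check were present, at 30.3 to 1203 CPM over all libraries. Of them 5 were called lower (CAV1 -2.18, PRKCB -1.18, CCND1 -1.06, CD99 -0.69 and NR0B1 -0.67 on the log2 scale), where 15.1% of all tested genes were. The other 5 were not called: LIPI (0.35), NKX2-2 (0.23), FLI1 (0.02), EWSR1 (-0.18) and STEAP1 (-0.24). Of 15 markers of blood, epithelial, endothelial, mesenchymal and muscle cells, PTPRC (107 to 162 CPM), DCN (107 to 157 CPM) and LUM (18.8 to 38.1 CPM) were well detected, MYOG was at 0 in all 4 libraries and the others stayed at or under 8.08 CPM. LUM was called lower (log2 fold change -0.79), PTPRC (-0.49) and DCN (-0.52) were lower but under the fold limit, and EPCAM, CDH5 and PDGFRA higher (1.42, 1.05 and 2.07); their part in the results below was not tested.

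After CBL0137, 6 of the 47 genes fell and 2 rose, and 39 were not called. The 6 that fell were CCNA2, CENPI, PLK1, AURKB, NCAPG and SPC25, with log2 fold changes from -0.93 to -0.71, and the 2 that rose were ASPM (0.98) and PRC1 (0.72). PRC1 was called on few reads and its FPKM went the other way, as given below. A gene counts as fallen or risen here when the adjusted p of edgeR's quasi-likelihood test (Benjamini-Hochberg over all tested genes) was under 0.05 and the fold above 1.5. The background, taken over every gene tested, was 15.1% lower and 18.2% higher (33.4% in either direction), against 12.8% and 4.26% of the members. At a mean log2 CPM of 5 or more, a level that 44 of the members reached, 15.4% were called lower and 8.27% higher. The share that fell was thus near that of all genes. None of the 47 passed a fold of 2 by edgeR in either direction, while 3206 of all tested genes did.

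The median log2 fold change of the members was -0.16, beside 0.01 over all tested genes. Without a fold limit, 23 members had an adjusted p under 0.05 in the lower direction and 12 in the higher one, where 30.9% and 30.8% of all tested genes did (61.7% in either direction). These counts depend on the scaling. Library size alone moves the median of all genes to 0.17 and that of the members to 0.0017, with 17 members lower and 17 higher. The 5 scalings named below were edgeR with TMM, upper-quartile factors, library size alone or the GC trend removed, and DESeq2. DESeq2 brought its own test as well as its size factors. In all 5, 17 members were lower and 9 higher with an adjusted p under 0.05, and 21 did neither. MKI67, PTTG1 and PRC1 were higher in each edgeR scaling and missed this only with DESeq2. Of the 17099 genes tested in all 5 scalings, 21.3% met this in the lower direction and 19.6% in the higher one. CPM summed over the 47 genes came to 7687 and 7982 with vehicle, and to 7793 and 7578 with the drug, so the groups overlapped. This overlap leans on ASPM, which gave 244 and 278 CPM of the sums with vehicle and 531 and 497 CPM with the drug. With library size alone the sums were 7239 and 7570 with vehicle and 8245 and 7967 with the drug, higher with the drug and without overlap. Their summed FPKM overlapped as well (1814 and 1871, then 1822 and 1769).

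**Figure D1:**
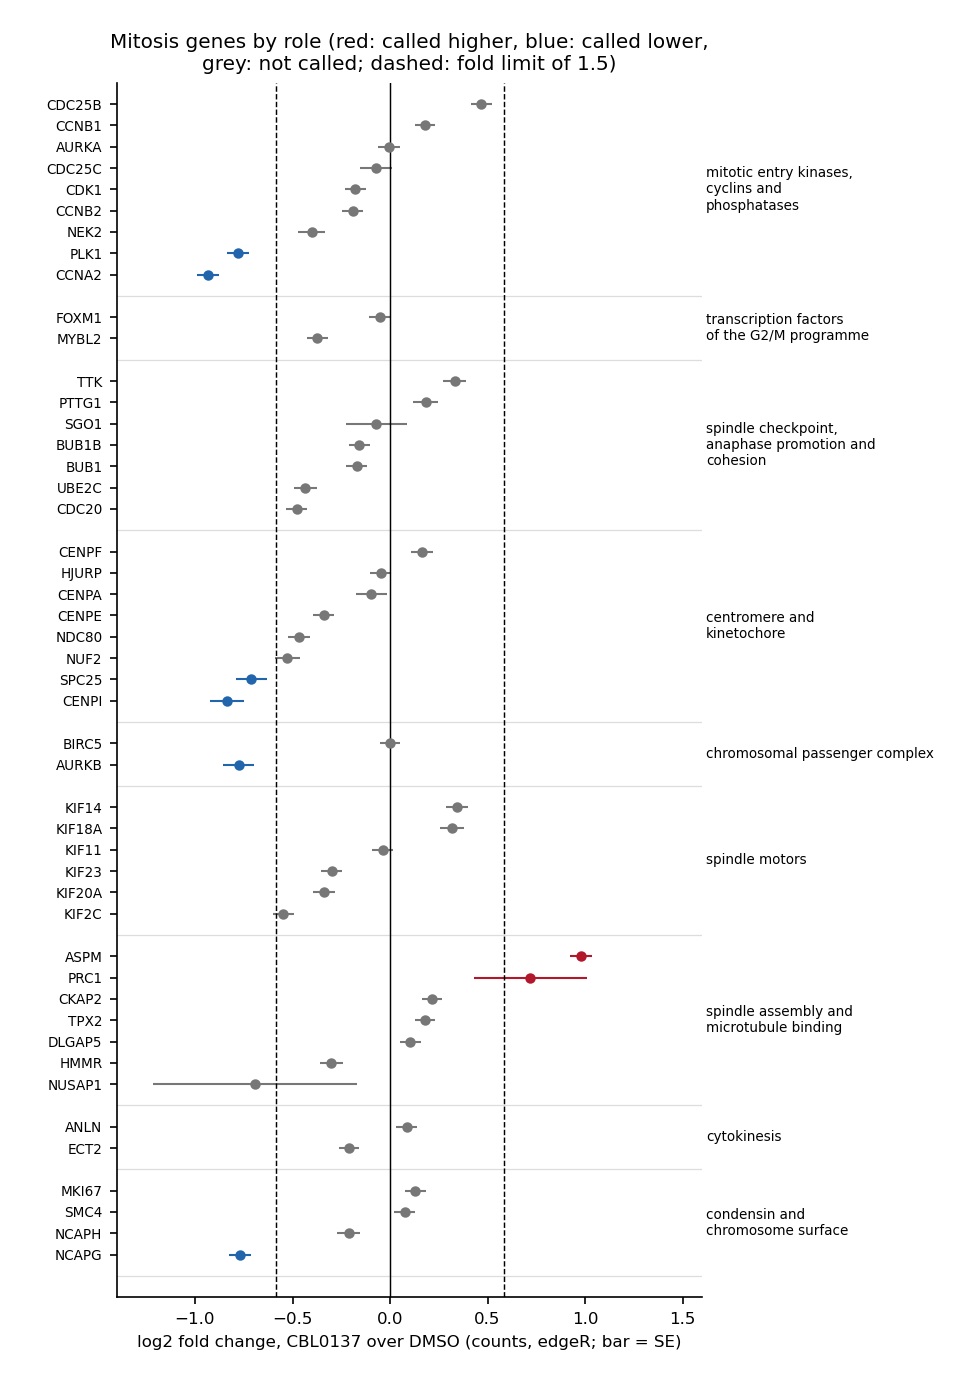
log2 fold change (x axis, CBL0137 over DMSO, bars SE) of each of the 47 genes, grouped by role; red points were called higher, blue points lower, and dashed lines mark the fold limit of 1.5. Most points lie between the dashed lines, with ASPM at 0.98 and CCNA2 at -0.93 as the extremes.

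**Figure D2:**
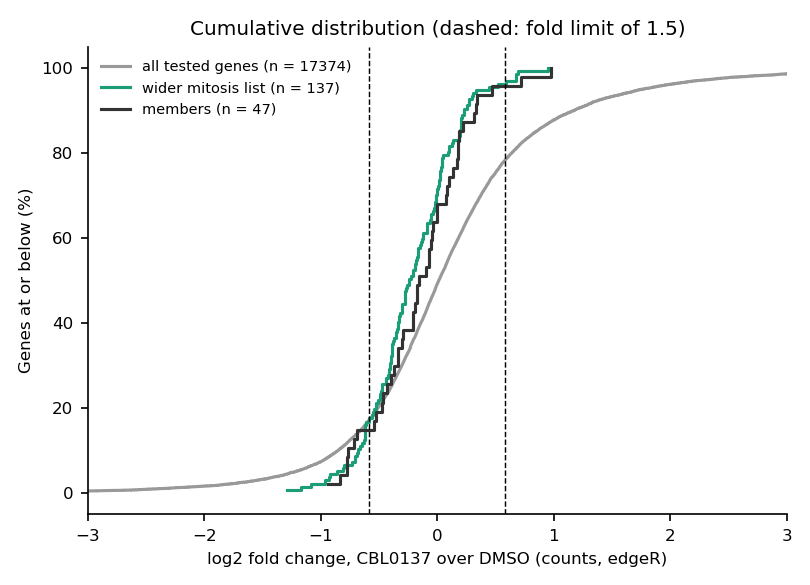
Share of genes (y axis, %) at or below each log2 fold change (x axis) for the 47 members, 137 further mitosis genes and all 17374 tested genes; dashed lines mark the fold limit. The curve of the members is steeper than that of all genes and lies to its left at its middle, with medians of -0.16 and 0.01.

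Promoters of mitotic genes often carry a CHR element, whose usual letters TTTGAA are read by MuvB, and CCAAT boxes bound by NF-Y. In the RefSeq promoter table (GRCh38.p14), which held 41 of the 47 genes, the 250 bases before the start contained TTTGAA on either strand in 20 promoters (48.8%), against 13.6% of all 27305 promoters of that length. CCAAT on either strand was found in 28 (68.3%), against 33.0% of all promoters, and both motifs in 16 (39.0%), against 4.85%. The motifs can overlap by a letter. Among 119 promoters of the further mitosis genes described below, shares were lower than in the members: 22.7% held TTTGAA, 51.3% CCAAT and 16.8% both. The median log2 fold change was -0.13 for members with TTTGAA in this window and -0.34 for those without. With CCAAT it was -0.17 and without it -0.34. Of the 6 genes that fell, 3 held TTTGAA and 4 CCAAT, and both genes that rose held both motifs. One of these, PRC1, was called on 23 to 84 counted reads per library and went the other way by FPKM.

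The 160 bases before the start are shown for 5 genes that fell, for ASPM, which rose, and for CCNB1, which was not called, to set the motifs of genes that went different ways side by side. CENPI, the remaining gene that fell, holds neither motif in the 250 bases and is not shown. Each was found by exact match in GRCh37, whose coordinates are given, and reads 5′ to 3′ towards the gene; capitals mark TTTGAA or TTCAAA and CCAAT or ATTGG.
PLK1, chr16:23690050-23690209, plus strand: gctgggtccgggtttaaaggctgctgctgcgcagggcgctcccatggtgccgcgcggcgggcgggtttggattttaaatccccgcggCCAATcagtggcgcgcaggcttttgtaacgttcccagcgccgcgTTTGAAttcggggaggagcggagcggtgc
NCAPG, chr4:17812442-17812601, plus strand: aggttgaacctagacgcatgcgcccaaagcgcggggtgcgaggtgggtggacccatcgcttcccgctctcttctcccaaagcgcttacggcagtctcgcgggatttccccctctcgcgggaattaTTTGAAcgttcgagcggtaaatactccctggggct
SPC25, chr2:169746941-169747100, minus strand: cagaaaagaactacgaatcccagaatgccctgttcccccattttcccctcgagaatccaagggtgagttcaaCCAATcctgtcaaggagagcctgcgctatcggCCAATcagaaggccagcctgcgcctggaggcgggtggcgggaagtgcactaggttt
CCNA2, chr4:122745039-122745198, minus strand: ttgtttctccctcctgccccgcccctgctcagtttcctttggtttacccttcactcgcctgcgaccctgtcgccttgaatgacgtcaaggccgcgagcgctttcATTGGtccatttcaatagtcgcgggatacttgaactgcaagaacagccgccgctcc
AURKB, chr17:8113544-8113703, minus strand: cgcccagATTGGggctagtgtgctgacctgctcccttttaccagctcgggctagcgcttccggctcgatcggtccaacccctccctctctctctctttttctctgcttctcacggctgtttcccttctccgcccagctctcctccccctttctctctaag
ASPM, chr1:197115800-197115959, minus strand: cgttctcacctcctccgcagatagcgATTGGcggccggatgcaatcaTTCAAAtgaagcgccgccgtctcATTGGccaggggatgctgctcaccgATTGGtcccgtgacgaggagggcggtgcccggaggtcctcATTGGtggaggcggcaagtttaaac
CCNB1, chr5:68462817-68462976, plus strand: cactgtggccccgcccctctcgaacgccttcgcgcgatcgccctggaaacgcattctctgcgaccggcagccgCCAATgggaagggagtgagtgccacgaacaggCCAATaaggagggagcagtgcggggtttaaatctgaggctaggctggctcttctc
PLK1 has TTTGAA beginning 29 bases and CCAAT 73 bases before the start, and NCAPG has TTTGAA at 35. SPC25 has CCAAT at 88 and 56, and CCNB1 at 87 and 55. CCNA2 has ATTGG at 56 and AURKB at 153. ASPM has TTCAAA at 113 and ATTGG at 134, 90, 65 and 25. Matches farther than 160 bases from the start are counted above but not shown. Genes that fell and genes that did not thus share these letters, which are matches only and were not tested as sites.

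Among the 9 genes of mitotic entry, CCNA2 and PLK1 fell and the other 7 were not called (median -0.18). CCNA2 (ENSG00000145386, GRCh37 chromosome 4, 122737599 to 122745038, minus strand), the cyclin of S phase and G2, was at 177 and 189 CPM with DMSO and at 95.9 and 95.6 CPM with CBL0137. The groups were far apart relative to their spread, and edgeR gave a log2 change of -0.93 (SE 0.06, adjusted p = 2.5e-18). PLK1 (ENSG00000166851, chromosome 16, 23688977 to 23701688, plus strand), the polo-like kinase of mitotic entry, spindle poles and cytokinesis, was at 154 and 153 CPM and then at 91.9 and 87.3 CPM. Its log2 fold change was -0.78 (SE 0.06, edgeR adjusted p = 1e-15), again with no overlap. EXOSC9 on the opposite strand shares 9.2% of the exonic bases of CCNA2, and ERN2 and an unnamed gene share 12.8% of those of PLK1. Reads there cannot be assigned with certainty, since no source at hand states the strand setting of the counting.

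The core of mitotic entry stood close to its vehicle level. CDK1, the kinase itself, was at 141 and 136 CPM with DMSO and 122 and 124 CPM with CBL0137, which is -0.18 on the log2 scale (SE 0.05, edgeR adjusted p = 0.0048). CCNB1, its main cyclin, was at 227 and 229 and then 255 and 262 CPM, which is 0.18 on the log2 scale (SE 0.05, edgeR adjusted p = 0.0026), and CCNB2 had -0.19. The groups did not overlap for any of these 3 genes, as for 79.9% of all tested genes. Each fold was under the limit of 1.5. Of these genes only CCNB1 kept an adjusted p under 0.05 in every scaling. CDK1 lost it with upper-quartile factors, with library size alone and with the GC trend removed. CCNB2 lost it with library size alone and with the GC trend removed. AURKA, the centrosomal Aurora kinase, was at 109.7 and 114 CPM and then 113 and 110.3 CPM, so its groups overlapped. CDC25B, a phosphatase that activates CDK1, had the highest value of the group (0.47, SE 0.05, edgeR adjusted p = 2.2e-10) and was called higher with library size alone (0.63). NEK2, a kinase of centrosome separation, had -0.40 and CDC25C -0.07 (adjusted p = 0.46).

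Neither transcription factor of the programme was called. FOXM1, a forkhead factor, overlapped between the groups, with 125 and 136 CPM in DMSO and 129 and 122 CPM in CBL0137 (log2 fold change -0.05, SE 0.06, edgeR adjusted p = 0.44). MYBL2, which encodes B-MYB, did not overlap: 417 and 407 CPM became 328 and 309 CPM. Its log2 fold change was -0.37 (SE 0.05, edgeR adjusted p = 5.5e-08), and with the GC trend removed it was called lower at -0.61.

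None of the 7 genes of the spindle checkpoint, anaphase promotion and cohesion was called by edgeR, though 6 of them had an adjusted p under 0.05 (4 lower, 2 higher; median -0.16), as did 61.7% of all tested genes. Only CDC20, UBE2C and TTK kept this in all 5 scalings, and with library size alone the median was 0.0017. CDC20, the activator of the anaphase-promoting complex, was at 227 and 224 CPM with DMSO and 164 and 159.8 CPM with CBL0137. That is -0.48 on the log2 scale (SE 0.05, edgeR adjusted p = 1.7e-10), called lower with the GC trend removed (-0.63). UBE2C, the ubiquitin-conjugating enzyme of the same complex, had -0.44 (SE 0.06). BUB1, a checkpoint kinase, was at 156 and 163 and then 141 and 143 CPM (-0.17), and its partner BUB1B had -0.16. TTK, the kinase at the head of the checkpoint, had 0.33 (SE 0.06, edgeR adjusted p = 3.5e-06) and PTTG1, the securin that holds separase inactive, 0.18. SGO1, which protects cohesin at centromeres, stood at only 7.63 to 9.19 CPM, with overlapping groups.

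Of the 8 centromere and kinetochore genes CENPI and SPC25 fell, where 15.1% of all tested genes did. In 7 of the 8 the log2 fold change was below 0 (median -0.40), beside 49.2% of all tested genes. With library size alone 5 of 8 were below 0 (median -0.24), beside 39% of all genes. CENPI (ENSG00000102384, chromosome X, 100353177 to 100421115, plus strand) belongs to the constitutive network that sits on centromeric chromatin. It was at 38.9 and 44.7 CPM with DMSO and 23.7 and 23.03 CPM with CBL0137, which is -0.84 on the log2 scale (SE 0.09, edgeR adjusted p = 3.3e-11). With FPKM, the authors' length-scaled values, CENPI was at 5.68 and 6.31 and then 4.14 and 5.07, and the difference in log2(FPKM + 1) of -0.32 was not called (limma adjusted p = 0.11).

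SPC25 (ENSG00000152253, chromosome 2, 169690642 to 169769881, minus strand) is a subunit of the Ndc80 complex, which grips microtubules at the outer kinetochore. Its 47.05 and 44.7 CPM with DMSO stood clear of 26.6 and 29.4 CPM with CBL0137 (log2 fold change -0.71, SE 0.08, edgeR adjusted p = 3.9e-10). The call was lost with library size alone (-0.55), with FPKM (-0.55) and with the GC trend removed (-0.57). The other subunits among the members, NDC80 (-0.47, SE 0.06) and NUF2 (-0.53, SE 0.06), stayed under the fold limit, and NUF2 was called without CBL0137 replicate 2 (-0.65). SPC24, the remaining subunit, was at 0.01 (SE 0.07).

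The genes of centromere identity did not pass the test. CENPA, the histone H3 variant that marks centromeres, was at 35.9 and 40.6 CPM with DMSO and 35.7 and 35.9 CPM with CBL0137, which is -0.10 on the log2 scale (SE 0.08, edgeR adjusted p = 0.3). HJURP, the chaperone that deposits it, had -0.05 (SE 0.05, adjusted p = 0.46). CENPE, a kinesin of the kinetochore, had -0.34 (SE 0.05), and CENPF, a large coiled-coil protein there, 0.17 (SE 0.06). Both had an adjusted p under 0.05 in each of the 5 scalings of the counts. In log2(FPKM + 1) neither did (limma adjusted p = 0.081 for CENPE and 0.1 for CENPF). CENPF had the highest CPM of the members, 611 and 689 with DMSO and 743 and 715 with CBL0137.

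In the chromosomal passenger complex, which corrects wrong attachments and steers cytokinesis, AURKB fell and BIRC5 was not called. AURKB (ENSG00000178999, chromosome 17, 8108051 to 8113918, minus strand), the kinase of the complex, was at 52.7 and 49.7 CPM with DMSO and 31.8 and 28.001 CPM with CBL0137. No library of one group reached the other, and edgeR gave a log2 change of -0.78 (SE 0.08, adjusted p = 2.3e-11). In log2(FPKM + 1) AURKB was at -0.56 and missed only the fold limit (limma adjusted p = 0.0053). With 0.1 added in place of 1 it was called lower. BIRC5, which encodes survivin, was at 175 and 179 and then 181 and 173 CPM, with overlapping groups. The remaining subunits INCENP (0.19) and CDCA8 (-0.30) were not called.

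None of the 6 spindle motors was called by edgeR; 3 had an adjusted p under 0.05 in the lower direction and 2 in the higher one, where 30.9% and 30.8% of all tested genes did. All 5 kept this in the 5 scalings, while the median of the group, -0.17, was -0.0095 with library size alone. KIF2C, a kinesin that takes microtubules apart, had the lowest value, -0.55 (SE 0.06, edgeR adjusted p = 2.5e-11), and was called without CBL0137 replicate 1 (-0.60). KIF20A (-0.34) and KIF23 (-0.30), kinesins of the central spindle, were also below 0. KIF14 (0.34, SE 0.06, edgeR adjusted p = 2e-06), which acts in cytokinesis, and KIF18A (0.32, SE 0.06), which dampens chromosome movements, were above 0. KIF11, the motor that pushes spindle poles apart, overlapped between groups (-0.04, SE 0.06).

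Genes of spindle assembly were the role with the highest median, 0.18, and contained both calls in the higher direction. ASPM (ENSG00000066279, chromosome 1, 197053251 to 197115824, minus strand), a spindle pole protein known for its part in brain size, was at 244 and 278 CPM with DMSO and 531 and 497 CPM with CBL0137. The libraries of the groups were well apart, and edgeR gave a log2 change of 0.98 (SE 0.06, adjusted p = 1.2e-18). Its FPKM went from 15.9 ± 1.63 to 33.5 ± 1.42 (SD, n = 2), and it was called higher in all 13 refits made for single genes. TPX2, the activator of AURKA on the spindle, had 0.18 and CKAP2, a microtubule stabiliser, 0.22, both under the fold limit. HMMR, a spindle protein also known as a hyaluronan receptor, had -0.30 (SE 0.06), and DLGAP5, which stabilises kinetochore fibres, 0.10 (edgeR adjusted p = 0.087).

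The call of PRC1 rested on few reads. PRC1 (ENSG00000198901, chromosome 15, 91509270 to 91538859, minus strand) bundles the microtubules of the central spindle. It had 56 and 23 counted reads with DMSO, against 69 and 84 with CBL0137, that is 2.96, 1.24, 3.14 and 3.79 CPM. DMSO replicate 1 stood near the CBL0137 libraries and DMSO replicate 2 well below them. The fitted value of 0.72 (SE 0.29, edgeR adjusted p = 0.03) became 0.21 without DMSO replicate 2 and 0.57 without CBL0137 replicate 2, neither of them called, and 1.47 without DMSO replicate 1. DESeq2 and the fit with no filter did not call it either (0.71 and 0.70).

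In FPKM the same gene was abundant and went the other way: 72.2 and 71.1 with DMSO against 63.5 and 60.4 with CBL0137, a difference of -0.21 in log2(FPKM + 1) (SE 0.05, limma adjusted p = 0.042) that was under the fold limit. NUSAP1, a spindle and nucleolar protein, showed the same gap. It had 12, 17, 10 and 11 counted reads in DMSO replicates 1 and 2 and CBL0137 replicates 1 and 2, and 70.6, 73.3, 81.2 and 58.9 FPKM in the same order. By counts its log2 fold change was -0.69 (SE 0.52, edgeR adjusted p = 0.25), and by FPKM the groups overlapped (-0.06). In GENCODE release 44 on GRCh37, other genes cover 61.9% of the exonic bases of PRC1 and 86.8% of those of NUSAP1 (chromosome 15, 41612992 to 41673248, plus strand), among them unnamed genes of the same strand. Among the other 45 members that share was at most 33.7%. CPM divided by FPKM in DMSO was 0.029 for PRC1 and 0.011 for NUSAP1, and 1.13 to 19.1 for the other 45. This ratio also rises with gene length, and PRC1 and NUSAP1 have 5523 and 3608 exonic bases. HTSeq by default sets aside reads that overlap more than 1 gene, and 8.747% to 9.339% of the reads per library were set aside as ambiguous; the part of this in the gap was not tested.

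**Figure D3:**
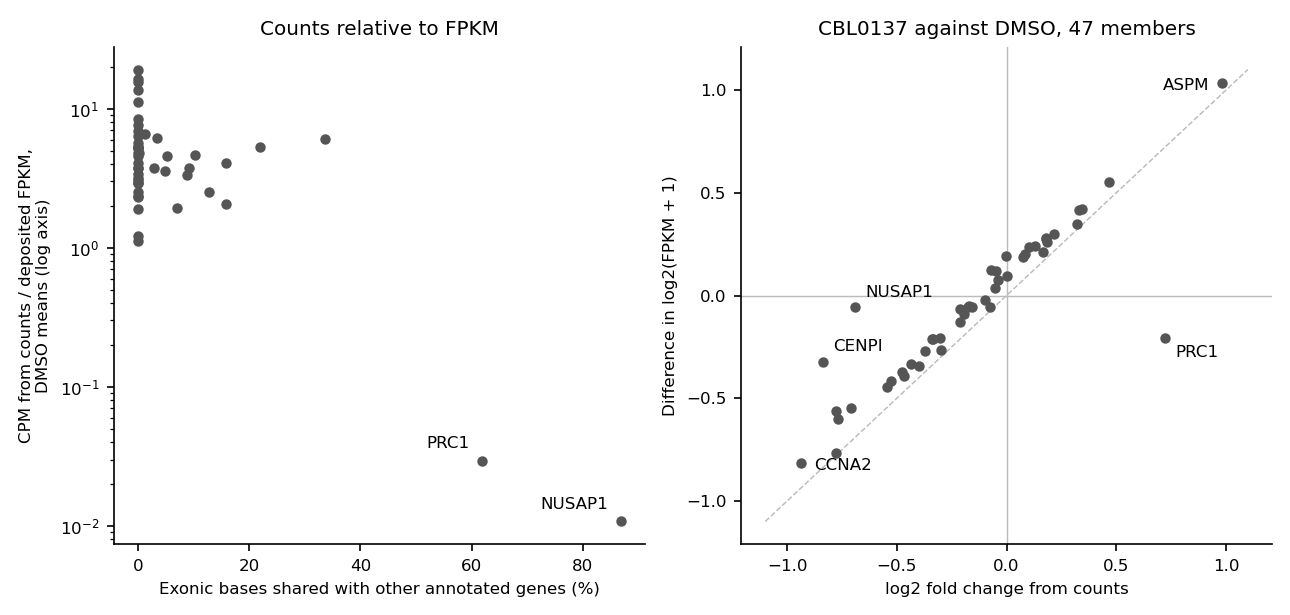
Left, CPM from counts divided by the deposited FPKM (DMSO means, log axis) against the share of exonic bases that other annotated genes cover, one point per member; right, difference in log2(FPKM + 1) against log2 fold change from counts, with the line of equality dashed. PRC1 and NUSAP1 lie at 0.029 and 0.011 on the left, under every other member, and PRC1 sits at 0.72 by counts and -0.21 by FPKM on the right.

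Cytokinesis and chromosome structure held 1 further call. ANLN (0.09), a scaffold of the contractile ring, and ECT2 (-0.21), which activates RhoA there, were not called. NCAPG (ENSG00000109805, chromosome 4, 17812602 to 17846488, plus strand), a subunit of condensin I, which compacts mitotic chromosomes, fell from 137 and 138 CPM to 78.8 and 82.5 CPM. No libraries overlapped (log2 fold change -0.77, SE 0.06, edgeR adjusted p = 2.8e-15), although LCORL on the opposite strand shares 33.7% of its exonic bases. NCAPH, of the same complex, had -0.21, and SMC4, the ATPase shared by both condensins, 0.08 (adjusted p = 0.22). MKI67, the proliferation antigen that coats chromosomes, was at 398 and 418 CPM with DMSO and 467 and 426 CPM with CBL0137. Its log2 fold change was 0.13 (SE 0.05, edgeR adjusted p = 0.033), with groups that only just failed to overlap. The adjusted p of MKI67 was not under 0.05 with DESeq2, nor in log2(FPKM + 1) (limma adjusted p = 0.073).

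**Figure D4:**
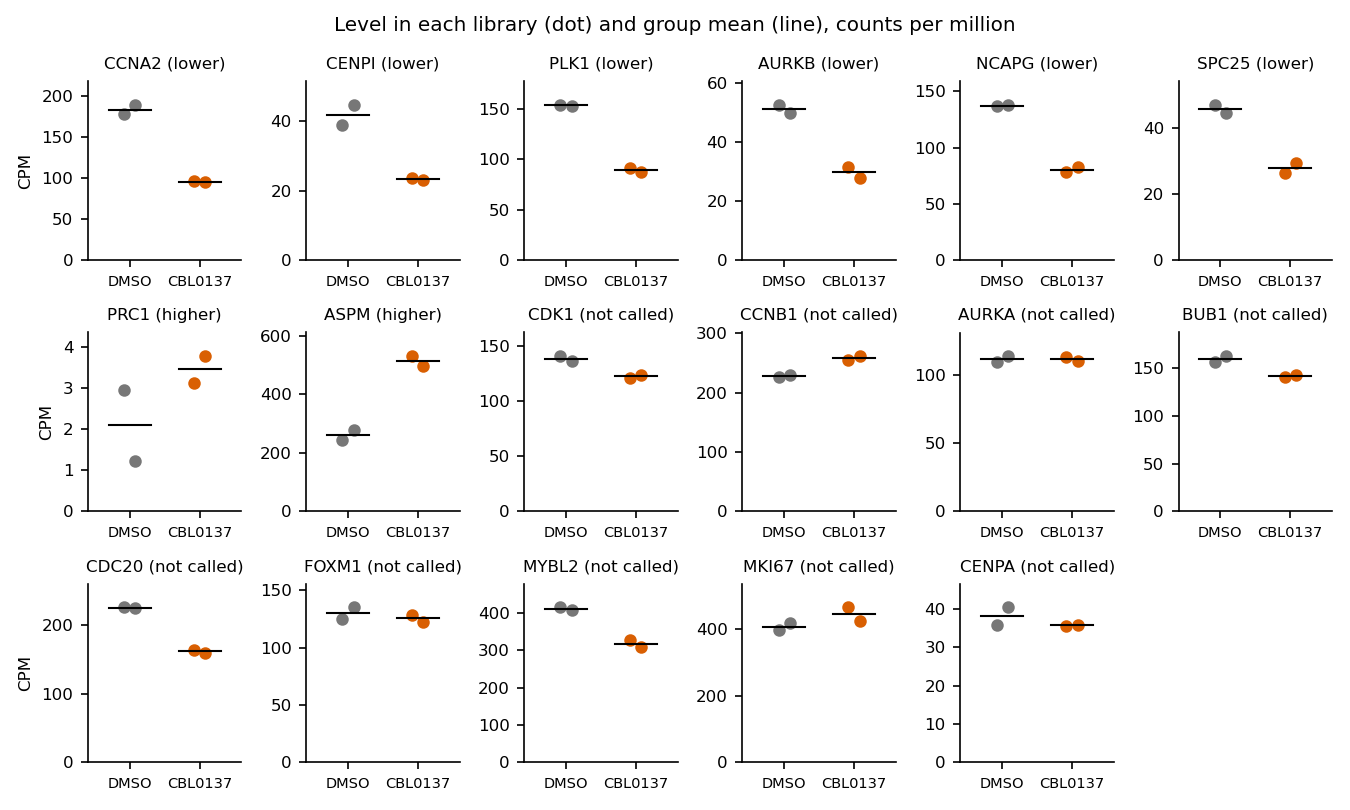
CPM (y axis, from 0) in each of the 4 libraries as dots with the group mean as a line, for the 8 called genes and 9 genes at the core of mitosis. Dots of the 6 genes called lower are apart between groups and tight within them, whereas PRC1 stands at 1.24 to 3.79 CPM with its DMSO dots far apart.

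CPM of the groups did not overlap for 42 of the 47 genes, and for 79.9% of all tested genes. By length-scaled level the members spanned a wide range. The highest mean FPKM in DMSO was that of MYBL2 (101 ± 0.399, SD, n = 2), followed by CDC20 (89.8 ± 0.183), UBE2C (85.3 ± 0.803) and SMC4 (82.8 ± 3.98). The lowest were SGO1 (4.06 ± 0.805), CENPI (5.68 and 6.31 in its libraries) and KIF14 (9.52 ± 0.849). UBE2C and SMC4 were closer to each other than the spread of SMC4. In log2(FPKM + 1), limma called 3 members lower (CCNA2, PLK1 and NCAPG) and 1 higher (ASPM), where 6.61% and 9.02% of all genes were. The sign was that of the counts for 40 of the 47.

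A list of 137 further mitosis genes, all tested, showed 22 lower and 5 higher (16.1% and 3.65%, beside 15.1% and 18.2% of all tested genes; median -0.25). Their summed level was 17569 and 17759 CPM with DMSO and 14942 and 14899 CPM with CBL0137, with no overlap. Calls in the lower direction dropped to 8 with library size alone and 14 with upper-quartile factors. Of 21 outer kinetochore and checkpoint genes 6 fell and 0 rose (median -0.27): SKA1 (-1.29, SE 0.08) and SKA3 (-1.17, SE 0.07), of the Ska complex that holds on to shrinking microtubules, ZWINT (-0.92), ZW10 (-0.73), SPDL1 (-0.62) and BUB3 (-0.62). SKA1 went from 53.5 ± 0.986 to 21.8 ± 2.61 CPM (SD, n = 2). SKA2, the third subunit, was not called (0.20, SE 0.06). Of 18 genes of the constitutive centromere network CENPM (-1.09, SE 0.07) and CENPK (-0.65, lost with library size alone at -0.49) fell and CENPT (0.69, SE 0.09, lost with the GC trend removed at 0.49) rose. Of the calls in these lists, SKA1, SKA3, ZWINT, CENPM, PDS5B, HAUS1 and HAUS2 were kept in every refit, and each of the others was lost in at least 1, mostly with library size alone.

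Cohesin and condensin had 4 of 15 lower and 0 higher (median -0.30), with 14 of 15 below 0 beside 49.2% of all tested genes. With library size alone the median was -0.14 and 12 of 15 were below 0, beside 39% of all genes. The 4 were the cohesin regulator PDS5B (-0.93, SE 0.05), the cohesin subunits STAG2 (-0.71) and RAD21 (-0.62), and NCAPG2 (-0.70) of condensin II. STAG2, RAD21 and NCAPG2 lost the call with library size alone (-0.55, -0.46 and -0.54). STAG2 (-0.54) and RAD21 (-0.48) also lost it with the GC trend removed. In log2(FPKM + 1) STAG2 was not called (-0.33), while RAD21 (-0.65) and NCAPG2 (-0.62) were called lower. Subunits of the anaphase-promoting complex and its regulators had 4 of 18 lower (UBE2S, CDC27, ANAPC10 and ANAPC7, from -0.66 to -0.61) and ANAPC2 higher (0.68, SE 0.07). With library size alone none of those 4 was called by edgeR (-0.50 to -0.45), and ANAPC2 was not called with the GC trend removed (0.34). Motors, spindle and centrosome genes had 6 of 30 lower, among them 3 of the 8 augmin subunits, HAUS2 (-0.97), HAUS1 (-0.81) and HAUS4 (-0.69), with CDK5RAP2 (-0.80), KIF15 (-0.68) and TUBG1 (-0.62), and HAUS7 higher (0.95), a gene that FPKM called lower (-0.75). Of 10 further cytokinesis genes TROAP (0.68) and SEPTIN9 (0.59) rose, both under the limit with the GC trend removed (0.47 and 0.33). No gene was called by edgeR among 19 of mitotic entry control and the MuvB complex (12 had an adjusted p under 0.05) or among 6 of the passenger complex and cohesion protection (3 did). Over all tested genes 61.7% had such an adjusted p.

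Members were poorer in GC than most genes, and the direction of calls varied with GC content over all genes. Their canonical transcripts had a median GC content of 41.9%, beside 48.4% over all tested genes, and 20 of the 47 lay among the 3420 genes poorest in GC. Of those genes 20.03% were called lower and 8.86% higher, against 8.51% and 31.5% of the 3420 richest. Over 5 groups of genes from poorest to richest in GC, the members' medians were -0.05, -0.19, -0.06, -0.63 and 0.05. The groups held 20, 9, 12, 4 and 2 members. Medians of all genes there were -0.16, -0.11, -0.02, 0.12 and 0.30. With 4 and 2 members in the richest groups, these values cannot tell whether members follow this order. With the GC trend removed, an alternative chosen after seeing the data, the median of the members was -0.05 beside -0.00043 over all genes, with 7 called lower and 2 higher. SPC25 was then no longer called, while CDC20 and MYBL2 were.

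**Figure D5:**
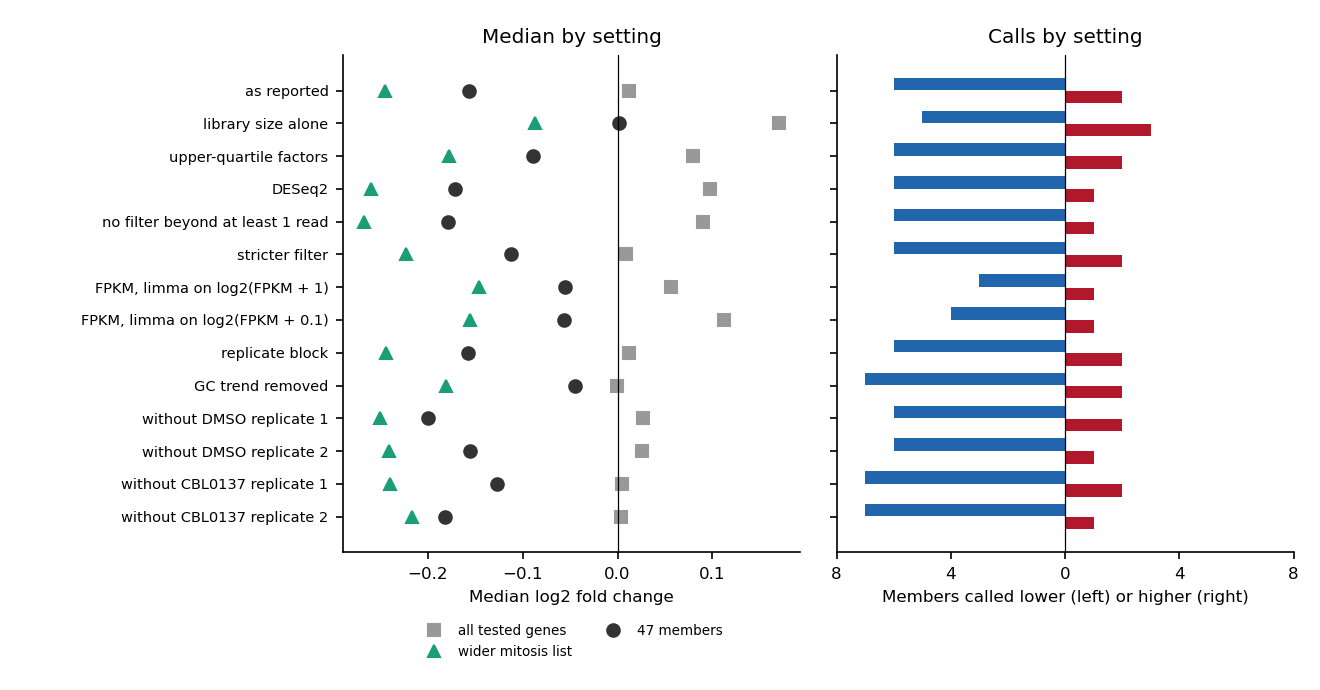
Left, median log2 fold change (x axis) of the 47 members, the 137 further genes and all tested genes under each setting (rows); right, number of members called lower (blue) and higher (red). The median of the members stays below that of all genes in each setting shown, and moves from -0.20 without DMSO replicate 1 to 0.0017 with library size alone.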

How the data were processed

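RNA of the 4 SKNMC libraries was extracted with TRIzol, per the labels' protocols; the sources used here do not state poly(A) selection or strandedness. Per the series' design text and the submitters' processing notes, the authors trimmed reads with Trim Galore, aligned them to hg19 with HISAT2 and deposited raw read counts per gene from HTSeq 0.11.1; they tested with DESeq2 1.26.0. The notes also name mm10 without a role. FPKM values were deposited by the authors, who derived them from mapped reads, gene length and depth with an unnamed tool. They are no rescaling of the counts: 5103 genes with 0 counts had FPKM above 0. The 6 entries naming no gene (8.525% to 10.279% of reads in no gene, 8.747% to 9.339% ambiguous, 6.906% to 7.135% with several alignments) stayed out of all tests.

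Symbols came from a gene list that named 41078 of 60617 identifiers, positions from GENCODE 44 on GRCh37 and promoters from RefSeq (GRCh38.p14). Counts were tested with edgeR 4.0.16 in R 4.3.3 (TMM, filterByExpr, quasi-likelihood F test, Benjamini-Hochberg over 17374 genes); a call needs an adjusted p under 0.05 and a fold above 1.5, the study's limits. SE is the absolute log2 fold change over the square root of F. FPKM were tested with limma 3.58.1 on log2(FPKM + 1) for genes with at least 0.1 in 2 libraries; the added 1 shrinks differences of low genes. Alternatives were DESeq2 1.42.0, other scalings, filters, pseudocounts and fold limits, a replicate block, leaving out each library and a GC trend (lowess per library, used as an offset). The fit was tested on simulated data. Replicates differed by more than sampling noise (chi-square per degree of freedom 2.95 for DMSO, 2.68 for CBL0137). The members, role groups and further lists were chosen with earlier results of these data known, so no test over a list was made. Named with full values were the called members and 9 core genes, with the highest and lowest of each role, and from the further lists the called genes; other genes were named after their values were seen.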

Additional observations from a re-analysis of the deposited data

How the results depend on the processing

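With 2 libraries a group the spread rests on few degrees of freedom, and the few counted reads of PRC1, NUSAP1 and HAUS7 limit the precision of their values; why so few were counted was not tested. The settings give, in this order, the median log2 fold change of the 47 members, their calls lower and higher, and those of the 137 further genes (reported: -0.16, 6 and 2, 22 and 5). Library size alone gave a median of 0.0017 and 8 further genes lower, and upper-quartile factors -0.089 and 14. The share of higher calls among all calls was 54.6%, and 68.8% and 61.0% in those fits. DESeq2 and no filter each called 1 member and 3 further genes higher. The stricter filter, under which NUSAP1 was not tested, gave a median of -0.11. FPKM gave medians of -0.06 (-0.05601 with 1 added and -0.05695 with 0.1) and 1 member higher with either. With 1 added, 3 members and 13 further genes were lower, with 3591 calls in all (5798 by counts). With 0.1 added, 4 members and 15 further genes were lower. The GC trend removed, chosen after seeing the data, gave -0.045 and 1 further gene higher. No fold limit gave 23 and 12 members, 76 and 22 further genes and 10722 calls; a fold above 2 gave 0 and 0, 3 and 0, and 3206. Leaving out each library in turn gave medians from -0.20 to -0.13, 6 to 7 and 1 to 2 members, 22 to 26 and 3 to 5 further genes, and 5117 to 5549 calls in all. The cause of these differences was not tested.

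Signs turned in 10 members, none of them called except PRC1. With library size alone the values were 0.085 for CDC25C, 0.16 for AURKA, 0.11 for FOXM1, 0.0017 for BUB1B, 0.089 for SGO1, 0.062 for CENPA, 0.11 for HJURP, 0.16 for BIRC5 and 0.12 for KIF11. With upper-quartile factors they were 0.065 for AURKA, 0.015 for FOXM1, 0.021 for HJURP, 0.068 for BIRC5 and 0.030 for KIF11. The stricter filter gave 0.011 for AURKA and 0.014 for BIRC5. FPKM with 1 added gave 0.19 for AURKA, 0.037 for FOXM1, 0.12 for SGO1, 0.12 for HJURP, 0.094 for BIRC5, 0.073 for KIF11 and -0.21 for PRC1. With 0.1 added it gave 0.20 for AURKA, 0.038 for FOXM1, 0.15 for SGO1, 0.12 for HJURP, 0.10 for BIRC5, 0.077 for KIF11 and -0.21 for PRC1. Removing the GC trend gave 0.090 for AURKA, 0.082 for SGO1 and 0.11 for KIF11. Leaving out 1 library at a time gave values from -0.048 to 0.0093 for AURKA, from -0.21 to 0.051 for SGO1 and from -0.033 to 0.024 for BIRC5.

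The labels link same-numbered libraries by nothing but the number. The correlation of their deviations from the group means was 0.0196. With 2 libraries a group both pairs give the same value by construction, so it counts once. A fit with the replicate block gave a median of -0.16, 6 members lower and 2 higher, 23 and 5 further genes, and 5741 calls in all.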

Other observations

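The gap between counts and FPKM seen for PRC1 and NUSAP1 was not limited to them. Of 5585 genes tested by both routes with a mean FPKM of at least 10 over all 4 libraries, 122 had a CPM under 0.1 times the FPKM over the same libraries. These included CENPS (ratio 0.043 in DMSO), of the constitutive centromere network. The ratio was not corrected for gene length, so very short genes can fall under 0.1 without such a gap. Of the 122, 23 were called by counts. Of these 23, 6 were called the same way by FPKM and 7 had the opposite sign by FPKM. HAUS7, an augmin subunit outside the 122 (ratio 0.066 in DMSO but 0.123 over all libraries), was at 1.25 ± 0.353 and 2.43 ± 0.366 CPM (SD, n = 2) and called higher by counts (0.95, SE 0.33, edgeR adjusted p = 0.012), while its mean FPKM went from 19.1 to 10.9 and was called lower (-0.75). Over the 16716 genes in both tests, 3 were called in opposite directions, and HAUS7 was among them. The genes named here were picked after their values were seen.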
